A study of Mus musculus with 14 samples.

Results

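The genes of RNA polymerase II (Pol II) pause release and elongation examined here were Cdk9, Ccnt1, Ccnt2, Cdk12, Cdk13, Nelfa, Nelfe, Supt5 and Supt6, which are 9 of the 56923 genes in the count table. They were found in the table by gene symbol, and each symbol matched 1 row. All 9 passed the filter on low counts in every comparison. Counts were from RNA-seq of early and late 2-cell mouse embryos. There were 7 conditions, each with 2 libraries made from 5 embryos apiece, or 14 libraries in all.

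Embryos were obtained from superovulated ICR females of 6 to 8 weeks mated with ICR males. Early 2-cell embryos were collected at 30 h and late 2-cell embryos at 54 h after the injection of hCG. In the G&N groups, embryos were cultured with 5 μM GNE-140, an inhibitor of the lactate dehydrogenases LDHA and LDHB, and 50 μM NMN, a precursor of NAD, in modified KSOM medium with 10 mM lactate. In the G&N-L groups the same medium lacked lactate from 24 h after hCG, and in the G&N-L + Lac-CoA group the embryos also received an injection of 1 mM lactyl-CoA, which the treatment label calls CoA. All these groups therefore carried the inhibitor and NMN, according to the titles. The treatment labels of the early libraries differ from their titles, since they give GNE140 alone for G&N, and GNE140 and NMN, without mention of lactate, for G&N-L. For the late WT and H3K18R groups the labels name no inhibitor, and by the study's methods the mRNA of wild-type histone H3 or of H3 with arginine in place of lysine 18 was injected at 14 h after hCG. These embryos keep their own H3 genes. No label states that the 2 libraries of a condition came from separate matings or cultures, so p-values measure the spread between these libraries, which may be technical.

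Most genes transcribed by Pol II are subject to a pause shortly after initiation. The factor DSIF, a dimer of SPT5 (Supt5) and SPT4, and the complex NELF hold the polymerase near the start site. P-TEFb, the kinase CDK9 with cyclin T1 (Ccnt1) or cyclin T2 (Ccnt2), then phosphorylates DSIF, NELF and the C-terminal domain of Pol II, upon which NELF leaves and DSIF stays on as an elongation factor. CDK12 and CDK13, each with cyclin K, phosphorylate the same domain during elongation, and SPT6 (Supt6) is a histone chaperone that travels with the elongating polymerase. In the mouse, the major wave of zygotic genome activation takes place at the late 2-cell stage, so these genes are transcribed, or inherited as oocyte mRNA, in the cells whose genome is being switched on.

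The libraries held 20350427 to 61275465 counts, and a count of 0 allows up to 3 counts, or 0.0490 to 0.147 CPM, which are counts scaled to a common library size. Reads amplified by PCR are not independent molecules, so these limits cover counting error only. All 10 oocyte markers and all 6 markers of the 2-cell stage were detected in every library. The summed CPM of the 2-cell markers was 461 to 807 in early and 1017 to 3275 in late libraries. Cumulus cell markers, 4 to 10 of 14 detected, summed to 3.04 to 43.0 CPM. Counts of the histone H3 gene H3c1 were 43643 and 83390 with H3K18R mRNA and 0 to 66 in the remaining 12 libraries, with 4 and 3 in the libraries labelled WT. The study injected a mixture of H3 mRNAs, and other H3 genes were not examined here. Low H3c1 counts in the libraries labelled WT therefore cannot show whether wild-type H3 mRNA was injected. The injection stated for that group rests on the study's methods.

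Cdk9 (ENSMUSG00000009555.17) lies on the minus strand of chromosome 2, chr2:32595794-32603589 in GRCm39, the build called mm39 in the study. Ccnt1 is on chr15:98436570-98468804 and Ccnt2 on chr1:127701901-127735798. Cdk12 and Supt6 are both on chromosome 11, at chr11:98093565-98170301 and chr11:78097572-78137037, and Cdk13 is on chr13:17884900-17979953. Nelfa is on chr5:34051922-34094418, Nelfe on chr17:35068650-35078716 and Supt5 on chr7:28014312-28038205. The 250 bases before the annotated start of the canonical transcript are shown for Cdk9 and Ccnt2, 2 P-TEFb genes whose mean levels were higher and lower, respectively, in late than in early G&N embryos, from the GRCm39 genome, each read on the strand of its gene. Capitals mark matches, on either strand, to the GC box GGGCGG or the CCAAT box CCAAT. The Cdk9 window is chr2:32603590-32603839 and the Ccnt2 window chr1:127701651-127701900.
Cdk9: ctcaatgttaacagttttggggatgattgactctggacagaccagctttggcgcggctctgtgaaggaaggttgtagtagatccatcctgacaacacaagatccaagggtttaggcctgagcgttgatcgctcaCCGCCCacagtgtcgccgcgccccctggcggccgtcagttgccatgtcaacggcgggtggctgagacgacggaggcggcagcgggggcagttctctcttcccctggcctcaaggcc
Ccnt2: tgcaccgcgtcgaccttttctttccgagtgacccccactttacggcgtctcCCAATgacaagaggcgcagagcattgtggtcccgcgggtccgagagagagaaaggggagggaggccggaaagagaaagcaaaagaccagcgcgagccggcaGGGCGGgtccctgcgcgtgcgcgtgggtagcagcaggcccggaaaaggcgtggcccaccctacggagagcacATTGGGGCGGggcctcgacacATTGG
The Cdk9 window held 1 GC box, while the Ccnt2 window held 2 GC boxes and 3 CCAAT boxes, 1 of each sharing a base near the start. Of 21757 windows of the same length before protein-coding genes, 36.3% held a GC box and 36.5% a CCAAT box. Among the 9 genes, 5 windows held a GC box and 2 a CCAAT box. Neither printed window held the TATA box TATAAA (11.9% of all windows), the OBOX-type core TAATCC (7.0%), the NR5A2-type site AAGGTCA (3.9%) or the E2F-type core TTCCCGC (4.7%). These matches describe the letters of the windows only.

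Per kilobase of annotated exon, Ccnt1 had the highest level of the 9 genes, with a mean of 7.29 CPM per kb over the 14 libraries, and Cdk13 the lowest, with 0.806 CPM per kb. The others lay between 1.67 CPM per kb for Supt6 and 3.90 CPM per kb for Cdk12. With the length of the canonical transcript in place of all exons, an alternative added after seeing the data, Ccnt1 was again first at 32.5 CPM per kb and Cdk13 last at 0.863 CPM per kb. Ccnt2 moved from the fifth place, at 3.30 CPM per kb, to the second, at 7.70 CPM per kb. The genes differed widely in how much they varied over conditions. The ratio of the highest to the lowest condition mean was 91.2 for Cdk9, 17.5 for Nelfe, 10.8 for Ccnt1, 7.44 for Supt5 and 6.39 for Cdk13, but 3.26 for Ccnt2, 3.01 for Cdk12, 2.83 for Nelfa and 1.599 for Supt6.

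**Figure D1:**
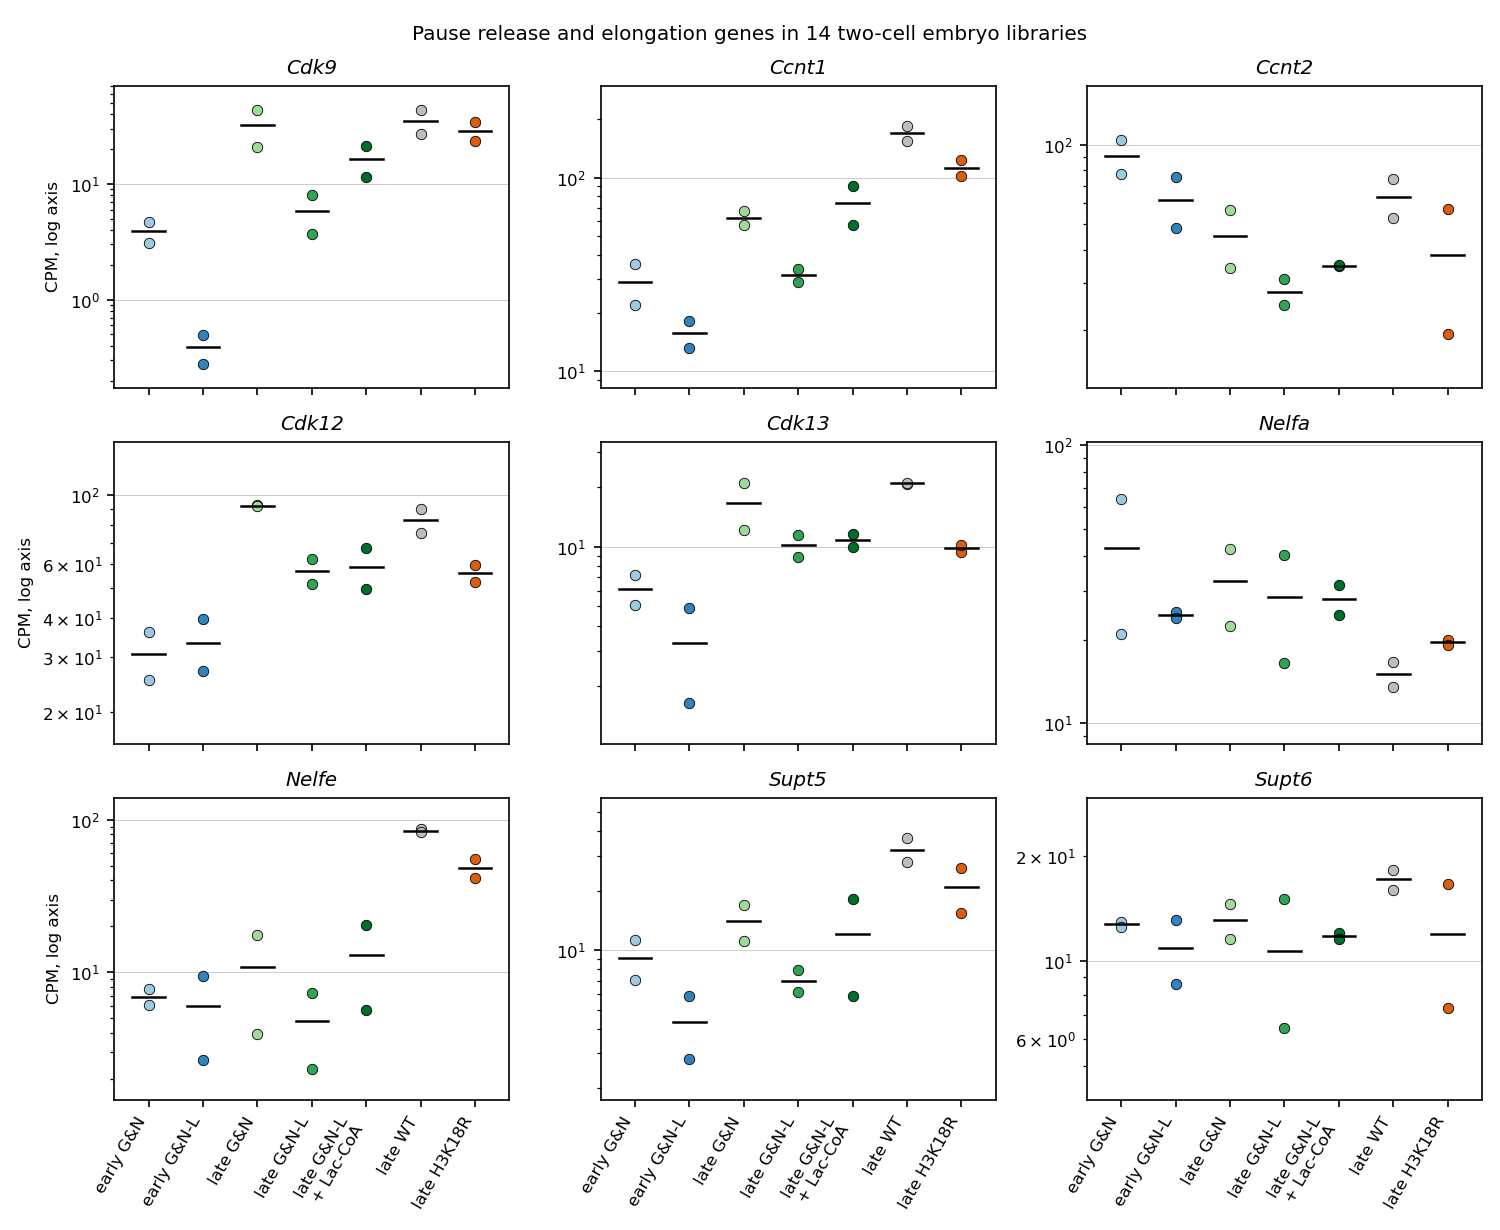
CPM of each of the 9 genes (log axis, on library sizes normalized over all 14 libraries) in the 7 conditions, with 1 point per library and a bar at the mean of 2. Cdk9 spans from 0.277 CPM in an early G&N-L library to 43.9 CPM in a late WT library, Nelfe stands highest in the WT and H3K18R libraries, and Supt6 stays between 6.42 and 18.3 CPM.

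Cdk9, the kinase of P-TEFb, was lowest in early embryos without lactate and higher in each late group except late G&N-L than in any early library. It had 158 and 208 counts in early G&N, or 3.10 and 4.73 CPM, and 11 counts in each early G&N-L library, or 0.277 and 0.499 CPM. Late G&N libraries had 21.04 and 43.2 CPM, late G&N-L 8.09 and 3.68 CPM, and late G&N-L + Lac-CoA 21.4 and 11.5 CPM. Late WT libraries had 43.9 and 26.8 CPM and late H3K18R libraries 34.2 and 23.3 CPM. In the order of condition means, the leading groups (WT 35.4 ± 12.1, late G&N 32.1 ± 15.7 and H3K18R 28.7 ± 7.67 CPM, SD, n = 2) overlapped, as did late G&N-L (5.88 ± 3.12 CPM) and early G&N (3.92 ± 1.15 CPM). Late G&N-L + Lac-CoA (16.4 ± 7.06 CPM) lay between these, and early G&N-L (0.388 ± 0.157 CPM) below all.

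Ccnt1, the cyclin of the main P-TEFb form, was lowest in early G&N-L with 13.2 and 18.2 CPM and highest in late WT with 154 and 186 CPM. Early G&N libraries had 35.7 and 21.9 CPM, late G&N 56.8 and 66.9 CPM, late G&N-L 33.8 and 29.0 CPM, late G&N-L + Lac-CoA 90.6 and 57.2 CPM, and H3K18R 123 and 102 CPM. The neighbours that overlapped in the order of means were late G&N-L + Lac-CoA with late G&N, and late G&N-L with early G&N. Ccnt2, the second cyclin partner, had another pattern. It was highest in early G&N with 104 and 77.6 CPM, and lowest in late G&N-L with 24.8 and 31.1 CPM. The other groups lay between, with 75.7 and 48.5 CPM in early G&N-L, 56.5 and 34.1 CPM in late G&N, 34.7 and 35.1 CPM in late G&N-L + Lac-CoA, 53.0 and 74.3 CPM in WT and 19.4 and 57.1 CPM in H3K18R. From late WT, second in the order of means, to late G&N-L + Lac-CoA, sixth, each group overlapped the next.

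Because both cyclins were counted in the same library, the ratio of Ccnt1 to Ccnt2 is free of the scaling between libraries. Per kilobase of exon this ratio was 0.282, 0.457, 0.557 and 0.609 in the 4 early libraries, so that Ccnt2 exceeded Ccnt1 in each. In the 10 late libraries it ran from 1.51 to 10.3 with a median of 3.04, so that Ccnt1 exceeded Ccnt2 in each. The early and late ranges did not overlap. With the canonical transcript lengths the early ratios were 0.538 to 1.16 and the late ratios 2.89 to 19.7, which leaves the gap between stages but puts the early libraries on both sides of 1. This ratio was chosen after its values were seen, and no test was made of it.

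**Figure D2:**
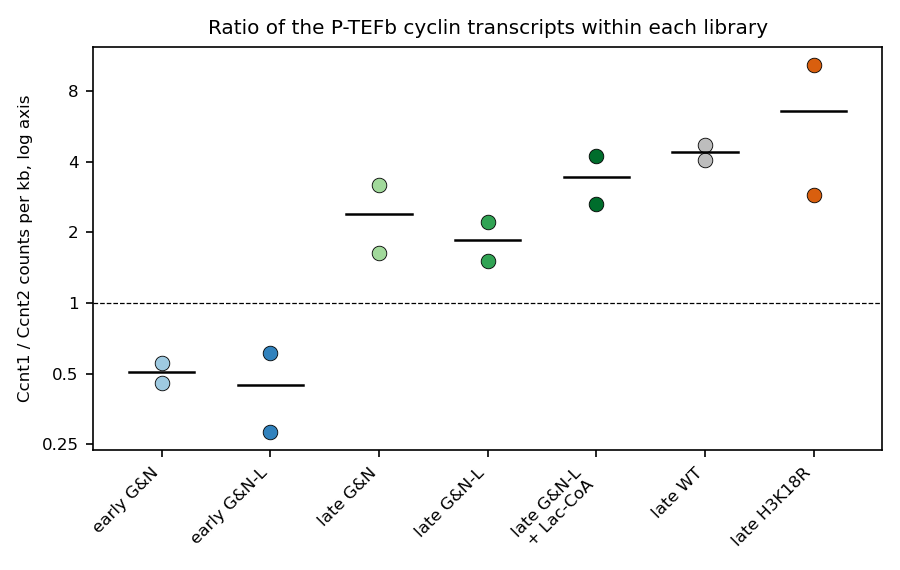
Ratio of Ccnt1 to Ccnt2 counts per kb of exon (log axis) in each library of the 7 conditions, with a bar at the mean of 2 and a dashed line at 1. The 4 early libraries sit at 0.282 to 0.609 and the 10 late libraries at 1.51 to 10.3.

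Cdk12, a kinase of the elongating polymerase, had 25.2 and 36.0 CPM in early G&N and 39.7 and 27.1 CPM in early G&N-L. Late G&N libraries were highest with 92.5 and 91.8 CPM, followed by WT with 90.0 and 75.4 CPM. Late G&N-L (51.4 and 61.9 CPM), late G&N-L + Lac-CoA (49.9 and 67.2 CPM) and H3K18R (59.6 and 52.5 CPM) overlapped one another. Its paralog Cdk13 was less abundant but ordered much alike, from 4.89 and 1.63 CPM in early G&N-L and 5.08 and 7.17 CPM in early G&N to 20.96 and 12.1 CPM in late G&N and 20.7 and 20.9 CPM in WT. Late G&N-L (11.5 and 8.90 CPM), late G&N-L + Lac-CoA (9.91 and 11.6 CPM) and H3K18R (9.44 and 10.2 CPM) again overlapped one another.

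The NELF subunits differed from the kinases and from each other. Nelfa differed widely between libraries of one condition, with 64.1 and 20.95 CPM in early G&N, 25.1 and 23.9 CPM in early G&N-L, 42.5 and 22.3 CPM in late G&N, 16.5 and 40.3 CPM in late G&N-L and 24.4 and 31.5 CPM in late G&N-L + Lac-CoA. It was lowest in WT with 13.5 and 16.6 CPM, just below H3K18R with 19.98 and 19.2 CPM. Nelfe had 86.4 and 82.6 CPM in WT and 55.2 and 41.5 CPM in H3K18R. In the other 10 libraries, which were all from inhibitor-treated embryos, it had 2.35 to 20.4 CPM, and the 5 inhibitor-treated groups overlapped their neighbours throughout. Injection of histone mRNA and absence of the inhibitor cannot be told apart in this contrast, which no comparison of the design tests. The late G&N-L + Lac-CoA embryos were injected as well, with lactyl-CoA, and had 5.68 and 20.4 CPM. The part of injection itself was not tested.

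The strand of counting is not stated in the sources used here, and exons of several of these genes overlap those of genes on the opposite strand. Nelfa shares 37.2% of its exonic bases with Nsd2, which had 15.9 to 73.6 CPM. Nelfe shares 26.6% with Cfb, which had 0 counts in all 14 libraries, 19.9% with Gm20547, and 5.44% with Skic2 (Skiv2l in the count table), which had 0.274 to 5.24 CPM. Ccnt1 shares 8.34% with the non-coding 9330020H09Rik (0 to 1.23 CPM), Supt5 7.37% with Gm44709 (0 counts throughout), Supt6 6.12% with Sdf2 (10.7 to 74.7 CPM) and Cdk12 4.25% with Gm38963. Reads in shared bases cannot be assigned to a strand, so the values of Nelfa in particular are uncertain. The microRNA genes Mir2861 and Mir3960 lie in Cdk9 exons on the same strand over 1.53% and 1.36% of its bases.

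Supt5 had 11.3 and 7.03 CPM in early G&N, 2.80 and 5.89 CPM in early G&N-L, 16.8 and 11.1 CPM in late G&N, 7.90 and 6.13 CPM in late G&N-L and 5.87 and 18.2 CPM in late G&N-L + Lac-CoA. It was highest in WT with 27.8 and 36.8 CPM, followed by H3K18R with 26.1 and 15.4 CPM, and only WT against H3K18R and late G&N-L against early G&N-L were neighbours that did not overlap. Supt6 was the steadiest of the 9 genes. Its condition means ran from 10.7 ± 6.07 CPM in late G&N-L to 17.1 ± 1.596 CPM in WT (SD, n = 2), and only WT did not overlap the next group.

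The first comparison asks how these genes stood in late embryos cultured without lactate. Without lactate, Cdk9 stood 5.46 times lower, Ccnt1 1.97 times lower and Cdk12 1.63 times lower than in late G&N embryos, and for each of these the groups did not overlap. No gene of the 19481 tested reached an adjusted p under 0.05 in edgeR's quasi-likelihood test with Benjamini-Hochberg adjustment, and 12% had an unadjusted p under 0.05. The volcano-plot criterion, which asks for that unadjusted p and an absolute log2 fold change over 0.5, was passed by 3 of the 9 genes, all lower, where 7.63% of all tested genes passed it in that direction and 4.23% in the other. These were Cdk9 (log2 fold change -2.38 ± 0.60, SE), Ccnt1 (-0.93 ± 0.27) and Cdk12 (-0.66 ± 0.23), with edgeR adjusted p of 0.324, 0.332 and 0.357. DESeq2 called 1 of the 9, Cdk9, with an adjusted p of 0.00612, and 888 genes in all, or 4.56%.

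The other members in the late lactate comparison had log2 fold changes of -1.13 ± 0.96 for Nelfe, -0.95 ± 0.50 for Supt5, -0.66 ± 0.37 for Ccnt2, -0.66 ± 0.49 for Cdk13, -0.24 ± 0.55 for Supt6 and -0.16 ± 0.56 for Nelfa, none past either threshold. All 9 estimates were below 0, with a median of -0.66, against -0.02 over all genes tested. The groups did not overlap for 6 of the 9 genes, all lower, while this held for 43.5% of all genes in either direction and 24.9% lower. Leaving out 1 library ended the calls at the volcano-plot criterion. Without late G&N replicate 2 none of the 9 passed it, with Cdk9 at -1.75, and without late G&N-L replicate 2 only Cdk9 did. Cdk12 no longer passed without any 1 of the 4 libraries, and the estimates of Nelfa, Nelfe and Supt6 turned positive without 1 library each or more. The summed CPM of the 10 oocyte markers was 20220 to 21553 in late G&N and 22684 to 25690 in late G&N-L, and that of the 6 markers of the 2-cell stage 1920 to 2049 and 2346 to 2769. Their part in these values was not tested. In whole 2-cell embryos, a lower share of these transcripts per cell and delayed embryos or cells cannot be told apart.

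**Figure D3:**
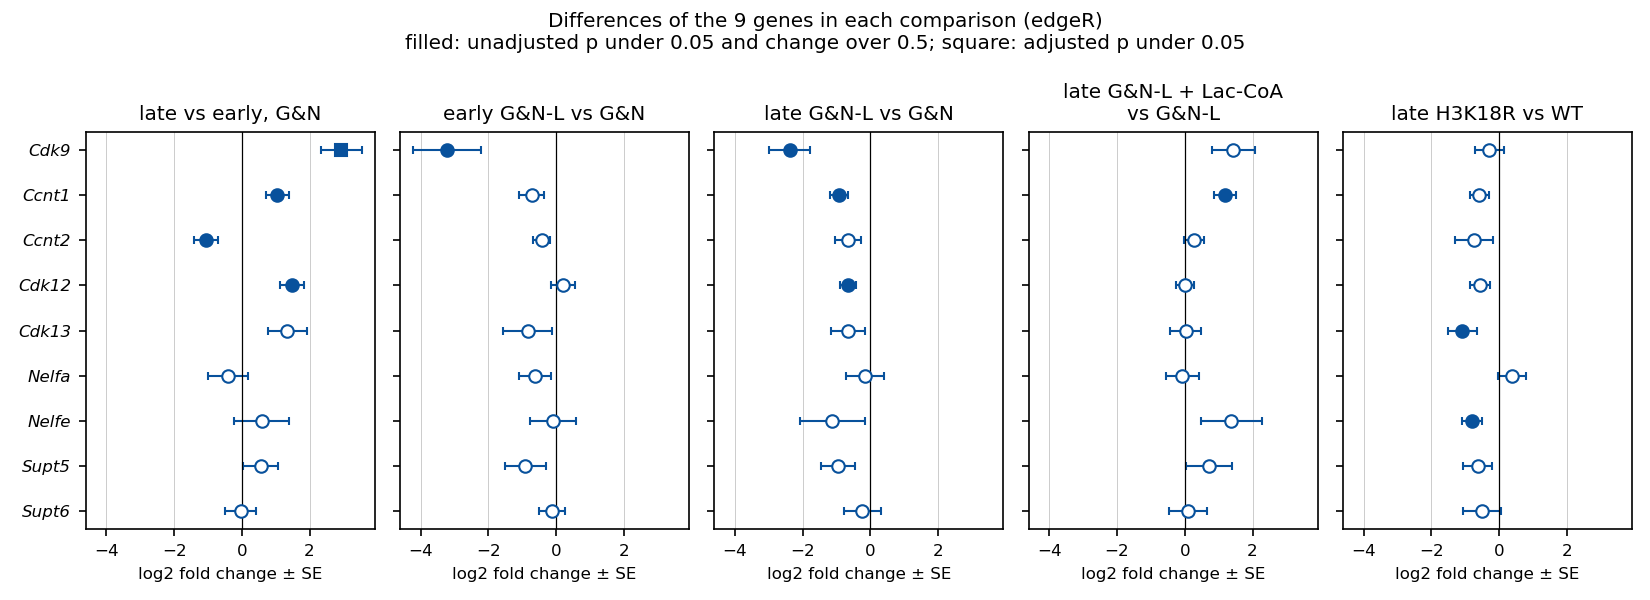
Log2 fold change ± SE (edgeR) of the 9 genes in 5 comparisons. Cdk9 is at -3.22 and -2.38 in the G&N-L comparisons and at 2.93 between stages, the only square and therefore the only value with an adjusted p under 0.05. Filled points passed the volcano-plot criterion.

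The other elongation genes came from a list of the partners and inhibitors of P-TEFb, the remaining NELF and DSIF subunits, the super elongation complex, the PAF1 complex, histone chaperones, TFIIS and elongin, and phosphatases of the Pol II C-terminal domain, 41 genes in the table. In late G&N-L against G&N embryos, 32 of the 41 had estimates below 0 and 9 above, with a median of -0.60, and 9 met the volcano-plot criterion, all of them lower, where 7.63% of all genes met it lower and 4.23% higher. None had an adjusted p under 0.05 in edgeR, and DESeq2 called 4, against 4.56% of all genes. Supt4a, the partner of Supt5 in DSIF, had 129 and 140 CPM in G&N-L against 286 and 394 CPM in G&N, or -1.29 ± 0.22 on the log2 scale. The elongin genes Elob and Eloa were at -1.33 ± 0.24 and -1.28 ± 0.23. Paf1, which gives the PAF1 complex its name, was at -1.68 ± 0.37, Aff4, the scaffold of the super elongation complex, at -1.42 ± 0.44 and Larp7, a protein of the 7SK particle that holds P-TEFb inactive, at -0.75 ± 0.21. By list, the 3 remaining NELF and DSIF genes had a median of -1.48, the 9 genes of the super elongation complex -0.71, the 6 of the PAF1 complex -0.45 and the 6 phosphatases -0.07, and no phosphatase passed the criterion.

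**Figure D4:**
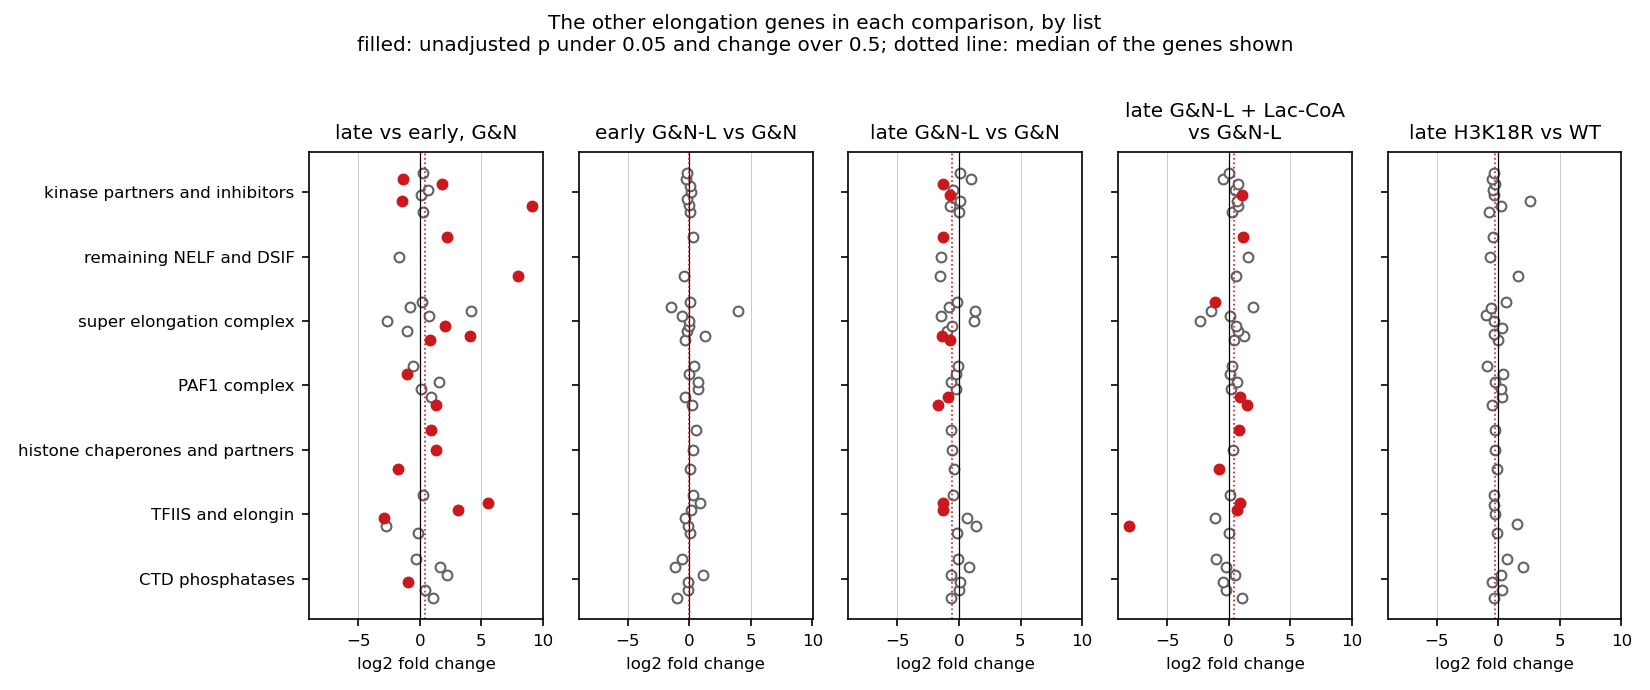
Log2 fold changes (edgeR) of the other elongation genes in 5 comparisons, 1 point per tested gene and arranged by list, filled where a gene passed the volcano-plot criterion and with a dotted line at the median. In late G&N-L embryos the 9 filled points are below 0, in early G&N-L and H3K18R embryos no point is filled, and with Lac-CoA 7 filled points are above and 3 below 0.

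At the early 2-cell stage the same question gave 1 member past the volcano-plot criterion. Cdk9 was 10.1 times lower in early G&N-L than in early G&N embryos, with 11 and 11 against 158 and 208 counts, a log2 fold change of -3.22 ± 0.998. Its adjusted p was 0.9999 in edgeR, and no gene of the 17343 tested had an adjusted p under 0.05, with 4.52% at an unadjusted p under 0.05. DESeq2 called 35 genes, none of the 9 among them. The criterion was passed lower by 2.69% and higher by 1.82% of all genes. It was lost for Cdk9 without early G&N-L replicate 1 and without early G&N replicate 2, with estimates of -2.80 and -2.75. The next in size were Supt5 (-0.91 ± 0.60), Cdk13 (-0.84 ± 0.71) and Ccnt1 (-0.72 ± 0.38), and Cdk12 alone was above 0 (0.21 ± 0.35). The median of the 9 genes was -0.63, against -0.01 over all genes. The groups did not overlap for 5 of the 9, all lower, with 32.7% of all genes not overlapping and 21.3% lower. Of the other elongation genes, 39 were tested, 20 had estimates below and 19 above 0, the median was -0.04, and none passed the volcano-plot criterion.

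An interaction term over 8 libraries asked whether the difference made by lactate was unlike between the stages. None of the 9 genes passed either threshold, and no gene of 22287 had an adjusted p under 0.05, with 7.55% at an unadjusted p under 0.05 and 198 called by DESeq2. The smallest p among the 9 was that of Cdk12, with -0.83 ± 0.44 and an adjusted p of 0.695 by edgeR, a negative value meaning a more negative estimate at the late stage. Cdk9 was at 0.89 ± 0.95, and the estimates ran from -0.97 for Nelfe to 0.89 for Cdk9. Of the 41 other elongation genes, 7 met the volcano-plot criterion with a negative and 1 with a positive estimate, against 3.98% and 3.57% of all genes. The 6 with the smallest p were Supt4a (-1.56 ± 0.32), Aff4 (-2.63 ± 0.64), Elob (-2.15 ± 0.64), Paf1 (-1.84 ± 0.55), Hexim1 (-4.49 ± 1.54) and Iws1 (-1.17 ± 0.41), with adjusted p of 0.528 to 0.65 in edgeR. Hexim1, an inhibitor of P-TEFb, was near 0 counts in early embryos, so its estimate depends on the prior count of the fit.

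The stage comparison used the late G&N and early G&N libraries that also served as the references of the lactate comparisons, so its values are not independent of those. Between the stages, in embryos with lactate, Cdk9 rose 8.21-fold from early to late G&N, from 3.10 and 4.73 to 21.04 and 43.2 CPM. This was the only call among the 9 genes, with a log2 fold change of 2.93 ± 0.60 and an adjusted p of 0.0364 in edgeR's quasi-likelihood test, where 13.7% of the 19443 genes tested were called. The call was lost without early G&N replicate 1 (adjusted p = 0.0643), without late G&N replicate 1 (0.0767) and without late G&N replicate 2 (0.158, with an estimate of 2.32), and the 2654 calls over all genes fell to 220 and 283 without either late library. Cdk12 was at 1.49 ± 0.36 with an adjusted p of 0.0508, Ccnt1 at 1.05 ± 0.34 with 0.0849 and Ccnt2 at -1.06 ± 0.36 with 0.0956 in the same test. Each of these passed the volcano-plot criterion, which 19.8% of genes passed higher and 14.6% lower. The libraries of the stages did not overlap for 5 of the 9 genes, with Cdk9, Cdk12, Ccnt1 and Cdk13 higher and Ccnt2 lower. This held for 64.6% of all genes, 35.7% higher and 28.9% lower. An unadjusted p under 0.05 was found for 4 of the 9 genes and for 34.4% of all genes.

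Cdk12 had an adjusted p under 0.05 with DESeq2 (0.000477), with the size factors of DESeq2 in edgeR (0.047), with library totals, with either filter on low counts and with all 14 libraries in one fit. Ccnt1 had one with DESeq2 (0.00772) and with at least 10 counts in every library, and Ccnt2 without a filter (0.0344). In all, DESeq2 called 3 of the 9 genes and 30.4% of all genes tested. The scaling moved this comparison more than any other. With library totals in place of TMM the median log2 fold change of all genes moved by 0.38, and the share of genes passing the volcano-plot criterion that were lower went from 42.5% to 29.6%. Ccnt2 no longer passed the criterion with library totals or, on TMM, with all 14 libraries in one fit, though its estimate stayed below 0. The cause of either loss was not tested. The other members were Cdk13 (1.34 ± 0.58), Nelfe (0.59 ± 0.82), Supt5 (0.56 ± 0.52), Supt6 (-0.04 ± 0.45) and Nelfa (-0.41 ± 0.59), and the sign of Supt6 turned with every other scaling. The median over the 9 genes was 0.59, against 0.08 over all genes.

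Among the 41 other elongation genes, 27 had estimates above and 14 below 0 between the stages, and 9 had an adjusted p under 0.05 in edgeR, against 13.7% of all genes. Elob rose from 5.24 and 2.00 to 144 and 199 CPM (5.53 ± 0.54, adjusted p = 0.00753), Supt4a from 79.7 and 57.3 to 286 and 394 CPM (2.25 ± 0.29, 0.0128), Eloa from 10.01 and 16.2 to 130 and 119 CPM (3.15 ± 0.42, 0.0137) and Aff4 from 4.65 and 2.66 to 87.5 and 41.5 CPM (4.10 ± 0.56, 0.0142). Hexim1 rose as well (adjusted p = 0.0148), from 2 and 0 counts to 651 and 410 counts, a ratio of 603 with a 95% exact interval of 166 to 4984 for counting error. Supt16, a subunit of the histone chaperone FACT, fell from 178 and 129 to 41.8 and 50.4 CPM (-1.79 ± 0.27, 0.0184). Of these 6 calls only that of Elob was kept when each library was left out in turn. Without late G&N replicate 1 the adjusted p was 0.0532 for Supt4a, 0.0699 for Eloa, 0.069 for Aff4, 0.0761 for Hexim1 and 0.105 for Supt16.

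In late embryos without lactate, the injection of Lac-CoA was compared with G&N-L alone. The study states no mock injection of the G&N-L embryos, so injection itself and Lac-CoA cannot be told apart. This comparison and the late lactate comparison share the late G&N-L libraries, so opposite signs in them are not independent. Ccnt1 was 2.35 times higher with Lac-CoA, with 90.6 and 57.2 against 33.8 and 29.0 CPM, and was the only member past the volcano-plot criterion (1.19 ± 0.32, adjusted p = 0.301 in edgeR), which 6.89% of genes passed higher and 6.29% lower. No gene of the 19610 tested had an adjusted p under 0.05 in edgeR, with 13.3% at an unadjusted p under 0.05. DESeq2 called 1167 genes, or 5.95%, and among the 9 only Ccnt1 (adjusted p = 0.0297). Cdk9 was 2.80 times higher, with 21.4 and 11.5 against 8.09 and 3.68 CPM (1.43 ± 0.64, adjusted p = 0.432). For Cdk9, Ccnt1 and Ccnt2 the groups did not overlap, all higher, as for 46.8% of all genes in either direction, 24.8% higher and 22% lower. The summed CPM of the oocyte markers was 15957 to 18856 with Lac-CoA and 22684 to 25690 without, and that of the 2-cell markers 3157 to 3275 and 2346 to 2769. Their part in these values was not tested.

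The remaining members with Lac-CoA were at 1.37 ± 0.90 for Nelfe, 0.72 ± 0.69 for Supt5, 0.27 ± 0.29 for Ccnt2, 0.09 ± 0.57 for Supt6, 0.03 ± 0.46 for Cdk13, -0.0035 ± 0.26 for Cdk12 and -0.07 ± 0.49 for Nelfa. By mean CPM, scaled over all 14 libraries, Cdk12 and Cdk13 were 1.63 and 1.62 times lower in G&N-L than in G&N. With Lac-CoA they were at 1.03 and 1.06 times the G&N-L level. The log2 estimates come from a fit with its own scaling, which is why the sign for Cdk12 differs. The difference between the genes was not tested. The median of the 9 was 0.27, against -0.01 over all genes, and with library totals the latter moved by 0.11 and the signs of Cdk12 and Nelfa turned. The call of Ccnt1 at the volcano-plot criterion was lost without Lac-CoA replicate 1 (0.80) and without G&N-L replicate 2 (1.08), whereas Cdk9 passed it without Lac-CoA replicate 2 (1.83) and without G&N-L replicate 1 (2.12).

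Of the other elongation genes with Lac-CoA, 30 had estimates above and 11 below 0, and 7 met the volcano-plot criterion with higher and 3 with lower levels, against 6.89% and 6.29% of all genes. The smallest p belonged to Mllt3, a reader subunit of the super elongation complex, with 319 and 300 against 652 and 667 CPM (-1.14 ± 0.16). Supt4a (1.16 ± 0.17), Larp7 (1.08 ± 0.18), Elob (0.90 ± 0.19), Paf1 (1.498 ± 0.355) and Eloa (0.71 ± 0.22) followed. All 6 had an adjusted p of 0.294 to 0.305 in edgeR. DESeq2 called 5 genes of the list, against 5.95% of all genes. The list's median was 0.43.

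The late H3K18R libraries were compared with those labelled WT, in which H3c1 counts were low and other H3 genes were not examined. H3c1 was the only gene of 17704 with an adjusted p under 0.05 in edgeR's test, which is 0.00565%, with 6.44% at an unadjusted p under 0.05, and DESeq2 called 108 genes, none of the 9. Cdk13 was 2.12 times lower, with 9.44 and 10.2 against 20.7 and 20.9 CPM (-1.08 ± 0.43, adjusted p = 0.769), and Nelfe 1.75 times lower, with 55.2 and 41.5 against 86.4 and 82.6 CPM (-0.80 ± 0.31, adjusted p = 0.756). Both passed the volcano-plot criterion, which 2.67% of genes passed lower and 3.77% higher. With another scaling, filter or fit, 0 or 1 of the 9 genes met it. None did without WT replicate 1 or without WT replicate 2, and 1 did without H3K18R replicate 2. Ccnt1 was at -0.59 ± 0.28, Cdk12 at -0.56 ± 0.29, Supt5 at -0.63 ± 0.44, Ccnt2 at -0.73 ± 0.56, Supt6 at -0.51 ± 0.56, Cdk9 at -0.30 ± 0.43 and Nelfa at 0.38 ± 0.41.

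The median of the 9 genes in H3K18R embryos was -0.59, against 0.03 over all genes. The groups did not overlap for 6 of the 9, with Ccnt1, Cdk12, Cdk13, Nelfe and Supt5 lower and Nelfa higher, as for 38.9% of all genes, 19.5% in each direction. The cumulus markers summed to 37.2 and 43.0 CPM in H3K18R and 14.7 and 26.7 CPM in WT libraries, with 6 to 10 and 4 of 14 markers detected and Inhba at 0 throughout. Their part in these values was not tested. Of the other elongation genes 38 were tested, 25 had estimates below and 13 above 0, the median was -0.26, and none passed the volcano-plot criterion, although 7 did so, lower, without H3K18R replicate 1 and 2 without H3K18R replicate 2. Without H3K18R replicate 1 the lower calls over all genes also went from 473 to 1668.

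Across the 14 libraries, the gene whose log2 CPM was most like that of Cdk9, of 25040 genes compared, was Foxj2 (Pearson's r = 0.969). Eif6 was most like Ccnt1 (0.978), Mrps7 like Ccnt2 (0.906), Gm12778 like Cdk12 (0.948), Qrsl1 like Cdk13 (0.943), Gm13417 like Nelfa (0.867), Trappc4 like Nelfe (0.955), Nolc1 like Supt5 (0.945) and Prkd2 like Supt6 (0.846). With a prior count of 0.5, Aunip was most like Ccnt2 (0.906) and Zfp488 most like Nelfa (0.847), and the rest were unchanged. Among the members, Cdk9 and Ccnt1 had r = 0.894, Cdk12 and Cdk13 r = 0.866 and Nelfe and Supt5 r = 0.814, while Ccnt2 had r = -0.344 with Cdk9 and r = -0.208 with Ccnt1. Within the 10 late libraries these were 0.812, 0.739, 0.918, 0.294 and 0.462, so the negative values of Ccnt2 did not hold within the late stage. The libraries share stage, injection and inhibitor treatment, which these correlations, given as a description, do not separate.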

How the data were processed

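The deposited values were raw counts of reads per gene, without normalization. Per the labels and the study's methods, the authors amplified cDNA from 5 embryos per library, used FastQC and Trim Galore for quality and trimming, HISAT2 for alignment on mm39 and featureCounts for counting. Tool versions and the strand setting are not given in the sources used here. Counts summed to 20350427 to 61275465 per library. The methods state 3 replicates, and 2 per group were analysed here. Groups came from the sample titles. The columns of the H3 mutant are named K18A in the count table and H3K18R in the titles, and were taken as the same libraries.

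The members and the lists were chosen with earlier results of these data known. All 9 members are reported, and of the other elongation genes the counts and at most 6 per comparison, those past the volcano-plot criterion with the smallest p, besides the 1 gene most like each member, overlapping genes and H3c1.

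In R 4.3.3, edgeR 4.0.16 was fitted separately on the libraries of each comparison (default filter, TMM, quasi-likelihood test, two-sided, Benjamini-Hochberg adjustment over all genes tested, prior count 0.125). The quasi-likelihood test gives no standard error. Each SE was derived from it, as the absolute log2 fold change divided by the square root of the F statistic. CPM levels use TMM over all 14 libraries, and log2 CPM a prior count of 2. With 2 libraries per group, the smallest p of an exact permutation test is 0.333. Replicates differed by more than counting noise (chi-square per degree of freedom 47.8 to 195). Alternatives were DESeq2 1.42.0, its size factors, library totals, other filters, 1 fit of all libraries, a replicate block, each library left out, a prior count of 0.5 and canonical transcript lengths. Gene positions came from GENCODE M39 on GRCm39. The fits were also run on simulated data, with large changes set only in genes with high counts. That run does not cover small changes or low counts.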

Additional observations from a re-analysis of the deposited data

How the results depend on the processing

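Low counts limit Cdk9 in early G&N-L embryos, at 11 a library, and 2 libraries a group limit every test. Of 630 estimates for the 9 genes under the alternatives, 560 kept their direction and their side of an adjusted p of 0.05, and 54 changed direction, 41 of these with 1 library left out. The cause was not tested for any change below. No pairing by replicate number was seen, with correlations of -0.051 to 0.0075 between the deviations of same-numbered libraries. Such values cannot show how the libraries were collected. The replicate block is given only here.

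Late lactate comparison: in place of 0 genes with an adjusted p under 0.05, DESeq2 gave 888, no filter 317, at least 10 counts in every library 114 and all 14 libraries in one fit 11. Of the 9 genes, 1 was called with DESeq2 and with no filter. Early lactate comparison: in place of 0 genes, DESeq2 gave 35, no filter 42 and all libraries in one fit 4, and 2 of the 9 were lower at the volcano-plot criterion in that fit. Lac-CoA comparison: in place of 0 genes, DESeq2 gave 1167, no filter 3 and at least 10 counts 2, 1 of the 9 was called with DESeq2, and 2 were higher at the volcano-plot criterion with DESeq2, no filter, one fit of all libraries and the replicate block. H3K18R comparison: in place of 1 gene, DESeq2 gave 108, no filter 78 and one fit 9. Lower at the volcano-plot criterion were 1 of the 9 with DESeq2, its size factors, library totals and no filter, and 0 with at least 10 counts, one fit and the replicate block. Stage comparison: in place of 2654 genes, DESeq2 gave 5908, or 30.4% of those tested, and no filter 5060. Of the 9, 3 were called with DESeq2, no filter and at least 10 counts, 2 with size factors, library totals and one fit, and 0 were lower at the volcano-plot criterion with library totals and one fit. Interaction: in place of 0 genes, DESeq2 gave 198, no filter 361 and one fit 1.

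Over all genes, the volcano-plot counts moved by over 1.5 times under these settings. Late lactate, higher: 438 in one fit and 464 with the block, against 824. Early lactate, higher: 565 with no filter, 509 in one fit and 148 with the block, against 315, and lower: 269 with at least 10 counts and 153 with the block, against 466. H3K18R, higher: 1184 with no filter, 1344 in one fit and 383 with the block, against 668, and lower: 235 with the block, against 473. Stage, higher: 2498 with at least 10 counts, against 3847. Interaction, higher: 371 with at least 10 counts, against 795. With 1 library left out, the late lactate count, lower, went from 1487 to 783 without late G&N replicate 2. The early lactate count, higher, went from 315 to 164 without G&N-L replicate 1, 759 without G&N replicate 1 and 504 without G&N replicate 2. With Lac-CoA the lower count went from 1234 to 658 and 563 when replicates 1 and 2 of G&N-L, respectively, were left out, and the higher count from 1352 to 864 without Lac-CoA replicate 2. With H3K18R the lower count went from 473 to 1668 without H3K18R replicate 1, 158 without WT replicate 1 and 171 without WT replicate 2, and the higher count from 668 to 1336 without H3K18R replicate 1 and 419 without H3K18R replicate 2. The shares of all genes given beside the members' counts rest on these counts.

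Estimates that changed sign by setting: with Lac-CoA, Cdk12 was at 0.11 with library totals, 0.0036 with at least 10 counts and 0.046 in one fit, and Nelfa at 0.044 with library totals and 0.054 with the replicate block. Between stages, Supt6 was at 0.072 with DESeq2, 0.0715 with its size factors, 0.35 with library totals, 0.14 with at least 10 counts and 0.040 in one fit. In the interaction, Supt5 was at 0.023 with library totals, 0.0092 with no filter and 0.084 in one fit.

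With each library left out in turn, where a group with 1 library is assumed to vary like the other, the members passing the volcano-plot criterion numbered 0 to 2 in late lactate, 0 to 1 in early lactate, 0 to 2 with Lac-CoA, 0 to 2 with H3K18R, 0 to 1 lower between stages and 0 to 1 in the interaction. Members called at adjusted p between stages numbered 0 to 2. Genes called numbered 220 to 2446 between stages, 0 to 1 with H3K18R and 0 to 26 in the interaction. The ranges that included a change of sign were, in late lactate, Nelfa -0.92 to 0.43, Nelfe -2.20 to 0.39 and Supt6 -0.96 to 0.23. In early lactate they were Cdk12 -0.10 to 0.62, Nelfa -1.17 to 0.25, Nelfe -1.17 to 0.50 and Supt6 -0.37 to 0.081. With Lac-CoA they were Cdk12 -0.21 to 0.18, Cdk13 -0.15 to 0.23, Nelfa -0.58 to 0.70, Supt5 -0.29 to 1.31 and Supt6 -0.39 to 0.82. With H3K18R it was Cdk9 at -0.61 to 0.12. Between stages they were Nelfa -0.97 to 0.58, Nelfe -0.90 to 1.28 and Supt6 -0.22 to 0.10. In the interaction they were Ccnt1 -0.46 to 0.18, Ccnt2 -0.51 to 0.24, Cdk13 -0.30 to 1.11, Nelfa -0.36 to 1.14, Nelfe -2.03 to 0.50, Supt5 -0.50 to 0.74 and Supt6 -0.80 to 0.40.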
